A study of Mus musculus with 32 samples.

Results

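The genes described here belong to the integrated stress response and to amino acid supply: Trib3, Ddit3, Atf4, Atf5, Asns, Chac1, Sesn2, Slc7a5 and Slc3a2. They are 9 of the 16741 genes in the deposited RNA table, matched by their mouse gene symbols, and all 9 were found and passed the filter on low values, which removed no gene. Trib3 headed the list because it was lower in CD8 T cells of mice given regulatory T cells (Treg) than in CD8 T cells of untreated mice. The other 8 were added as partners or targets of the transcription factor Atf4, to ask whether they followed Trib3. The list was thus selected on the measured change of Trib3 between Treg-treated and untreated CD8 cells, and the values of that comparison are given below as a description without a test.

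The 31 libraries were bulk RNA sequencing of primary T cells from spleen and lymph nodes in a mouse model of graft-versus-host disease, in which T cells of C57Bl6 donors attack the tissues of Balb/c hosts. The sorted donor populations were conventional CD4 cells, CD8 cells and Treg. Before transplantation there were 2 libraries of each cell type (day 0). After transplantation CD4 and CD8 cells each gave 3 libraries from syngeneic hosts, 4 from allogeneic hosts and 4 from allogeneic hosts that had also been given Treg at transplantation, called Treg-treated here. The remaining 3 libraries were Treg recovered from Treg-treated hosts. Sample titles place the later cells at day 6, while the series text gives a later day. The strain of the syngeneic hosts, the conditioning of the hosts and the sorting gates were not given in the sources used here, and nothing says whether a library came from 1 animal or a pool. The p-values below measure the spread between these libraries, which may be technical. The values are counts that the authors scaled between libraries, called normalised counts here.

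Cells that run short of amino acids, accumulate misfolded proteins or meet a virus activate kinases that phosphorylate the translation initiation factor eIF2. General protein synthesis then falls, while translation of the Atf4 mRNA rises, so the amount of Atf4 mRNA is not a measure of Atf4 protein. Atf4 protein binds DNA with partner factors and switches on genes for amino acid uptake and synthesis, for transfer RNA charging and, when stress persists, for cell death. Activated T cells depend on amino acid import to grow and divide, and the heterodimer of Slc7a5 and Slc3a2 carries large neutral amino acids such as leucine into them.

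The sorted populations mostly carried the lineage genes of their labels. Cd4 lay at 8722 or more in 10 of the 11 CD4 libraries taken after transplantation and at most at 92.8 in any CD8 library. Replicate JL019-2 of the CD4 syngeneic group stood apart, its Cd4 at 1659 and its Cd8a at 1956. In that library the summed normalised count of 8 myeloid markers was 940006, and that of 4 erythroid markers was 246170. Where a call named below changed without it, the value without it is given. Foxp3, which defines Treg, was at 198 to 442 in day 0 Treg and at 978 to 1145 in day 0 CD4 cells, which goes against those labels. Foxp3 was also at 103 to 453 in CD8 allogeneic and 109 to 236 in CD8 Treg-treated libraries, against 0 to 3.52 in CD8 syngeneic libraries. The mean normalised count per gene ran from 1227 to 2385 across libraries. Reads could not be recovered from the values, so the depth is unknown and its effect on precision cannot be given.

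The C/EBP-ATF response element, the DNA motif that Atf4 binds together with a C/EBP factor, was searched as TGATGNAA on both strands in windows from 250 bases before to 50 bases after each gene's start (RefSeq, mouse GRCm38.p6). Of the 9 genes, 8 had a window, and Slc7a5 had none. The motif lay in 3 of these 8, Asns, Chac1 and Trib3, and in 3.97% of the 32851 windows of all genes. The list was drawn up around Atf4 and its targets, so nothing is read from the difference between these shares. The cyclic AMP element TGACGTCA, the E-box CACGTG and the endoplasmic reticulum stress element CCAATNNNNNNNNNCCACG were each in 0 of the 8, against 1.79%, 7.15% and 0.119% of all windows. The 250 bases before the start of Asns (chr6:7693210-7693459, minus strand) and Chac1 (chr2:119350992-119351241, plus strand) are shown because they hold the match, with 30 bases around the match of Trib3 (chr2:152344028-152344057, minus strand). All run 5′ to 3′ on the strand of the gene, and capitals mark the match.
Asns: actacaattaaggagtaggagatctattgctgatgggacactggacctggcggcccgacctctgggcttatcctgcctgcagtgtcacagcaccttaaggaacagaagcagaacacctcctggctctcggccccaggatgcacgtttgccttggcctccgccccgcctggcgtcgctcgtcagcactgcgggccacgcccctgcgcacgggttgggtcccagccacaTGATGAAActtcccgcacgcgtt
Chac1: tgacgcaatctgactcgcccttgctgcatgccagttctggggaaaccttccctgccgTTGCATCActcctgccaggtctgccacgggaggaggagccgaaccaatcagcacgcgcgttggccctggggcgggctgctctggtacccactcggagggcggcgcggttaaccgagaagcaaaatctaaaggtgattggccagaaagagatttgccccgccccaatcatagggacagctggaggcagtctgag
Trib3: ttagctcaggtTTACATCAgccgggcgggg
The match in Asns was on the gene's strand with its first base at -23 from the start. In Chac1 it was on the other strand at -193, and in Trib3 on the other strand at 15, inside the transcribed part. A match is a description of the letters, and no binding was measured.

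Trib3 (ENSMUSG00000032715, chr2:152337425-152344060 of GRCm38) encodes a pseudokinase that is induced by Atf4 and Ddit3 and binds back to Atf4. In the 4 CD8 allogeneic libraries, always given in the order JL019-1, JL019-2, JL027-1 and JL027-2, its normalised count was 244, 366, 242 and 624. In the CD8 Treg-treated libraries it was 147, 74.9, 109 and 76.4. Every Treg-treated library was below every allogeneic library, with a log2 difference of -1.79 (SE 0.34, n = 4 and 4). Within the JL019 and the JL027 label prefixes, with 2 libraries a group, the log2 difference was -1.50 and -2.08. The CD8 syngeneic libraries were lower still, at 30.9, 60.8 and 67.4 for JL019-1, JL019-2 and JL027, and the day 0 libraries were at 49.3 and 41.6. The Treg-treated group thus lay between the allogeneic and the syngeneic libraries and overlapped neither. In the comparison that chose it, Trib3 ranked at 6 by p among 11 genes that passed the test, of which 3 were lower. The genes just inside the threshold, Hhat and Ncr1, had log2 changes of -1.13 and 3.60, and those just outside, Pttg1ip and Polr3gl, of -0.70 and -1.03.

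Of the other 8 genes, 7 had a lower mean in Treg-treated than in allogeneic CD8 cells. Asns (ENSMUSG00000029752, chr6:7675165-7693209) encodes asparagine synthetase. Its counts were 2130.3, 3096, 5693 and 4644 in the allogeneic and 1379, 967, 1555 and 1825 in the Treg-treated CD8 libraries. These groups did not overlap either, and the log2 difference was -1.38 (SE 0.43), or -1.15 and -1.61 within the prefixes. Of the 8 genes other than Trib3, Asns was the 1 whose libraries were all lower without overlap, which held for 2.31% of all genes, and nothing is read from that share since the comparison chose the list. The share of all genes that passed the test in this comparison was 0.0657%.

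Slc7a5, the catalytic chain of the leucine transporter, had the second lowest log2 difference after Trib3, but with overlap. Its allogeneic CD8 counts were 3592, 5886, 1927 and 8056, and its Treg-treated counts were 2253, 359, 3592 and 1093. The groups overlapped: JL027-1 was the lowest allogeneic library and the highest Treg-treated one. The log2 difference was -1.67 (SE 0.57), and it was -2.35 in JL019 and -0.99 in JL027. Chac1, which breaks down glutathione, ran from 16.5 to 100.3 in allogeneic and from 11.0 to 28.3 in Treg-treated CD8 libraries, a log2 difference of -1.07 (SE 0.85). Sesn2, a leucine sensor that restrains the growth kinase complex mTORC1, had a log2 difference of -0.46 (SE 0.41) that was -1.10 in JL019 and 0.18 in JL027. The smallest differences were those of the heavy chain Slc3a2 at -0.34 (SE 0.25), of the transcription factors Atf5 at -0.32 (SE 0.38) and Ddit3 at -0.26 (SE 0.32), and of Atf4 itself at 0.22 (SE 0.23). Between the prefixes Ddit3 went from 0.35 in JL019 to -0.87 in JL027 and Atf5 from -0.96 to 0.31. With 1 library left out, the difference ran from -0.94 to -0.05 for Sesn2, -0.63 to -0.0034 for Ddit3, -0.55 to -0.04 for Atf5, -1.48 to -0.63 for Chac1 and -2.15 to -1.04 for Slc7a5, and from -1.98 to -1.50 for Trib3 and -1.64 to -1.17 for Asns. The median over the 9 genes was -0.46, against -0.01 over all genes. It includes Trib3, which this comparison chose, and nothing is read from it. The mean normalised count per gene was 1761 to 2385 in CD8 Treg-treated and 1691 to 1849 in allogeneic libraries. The myeloid sum reached 18075 in Treg-treated replicate JL019-2 against at most 9117 in allogeneic libraries. Cd8a was at 22586 to 29769 in Treg-treated and 14160 to 19947 in allogeneic libraries. The erythroid sum was 1376 and 1561 against 626 and 296 in JL019, and 8645 and 9203 against 7118 and 4133 in JL027. Their part in these differences was not tested. In bulk RNA, fewer cells that express a gene and less RNA of it per cell cannot be told apart.

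**Figure D1:**
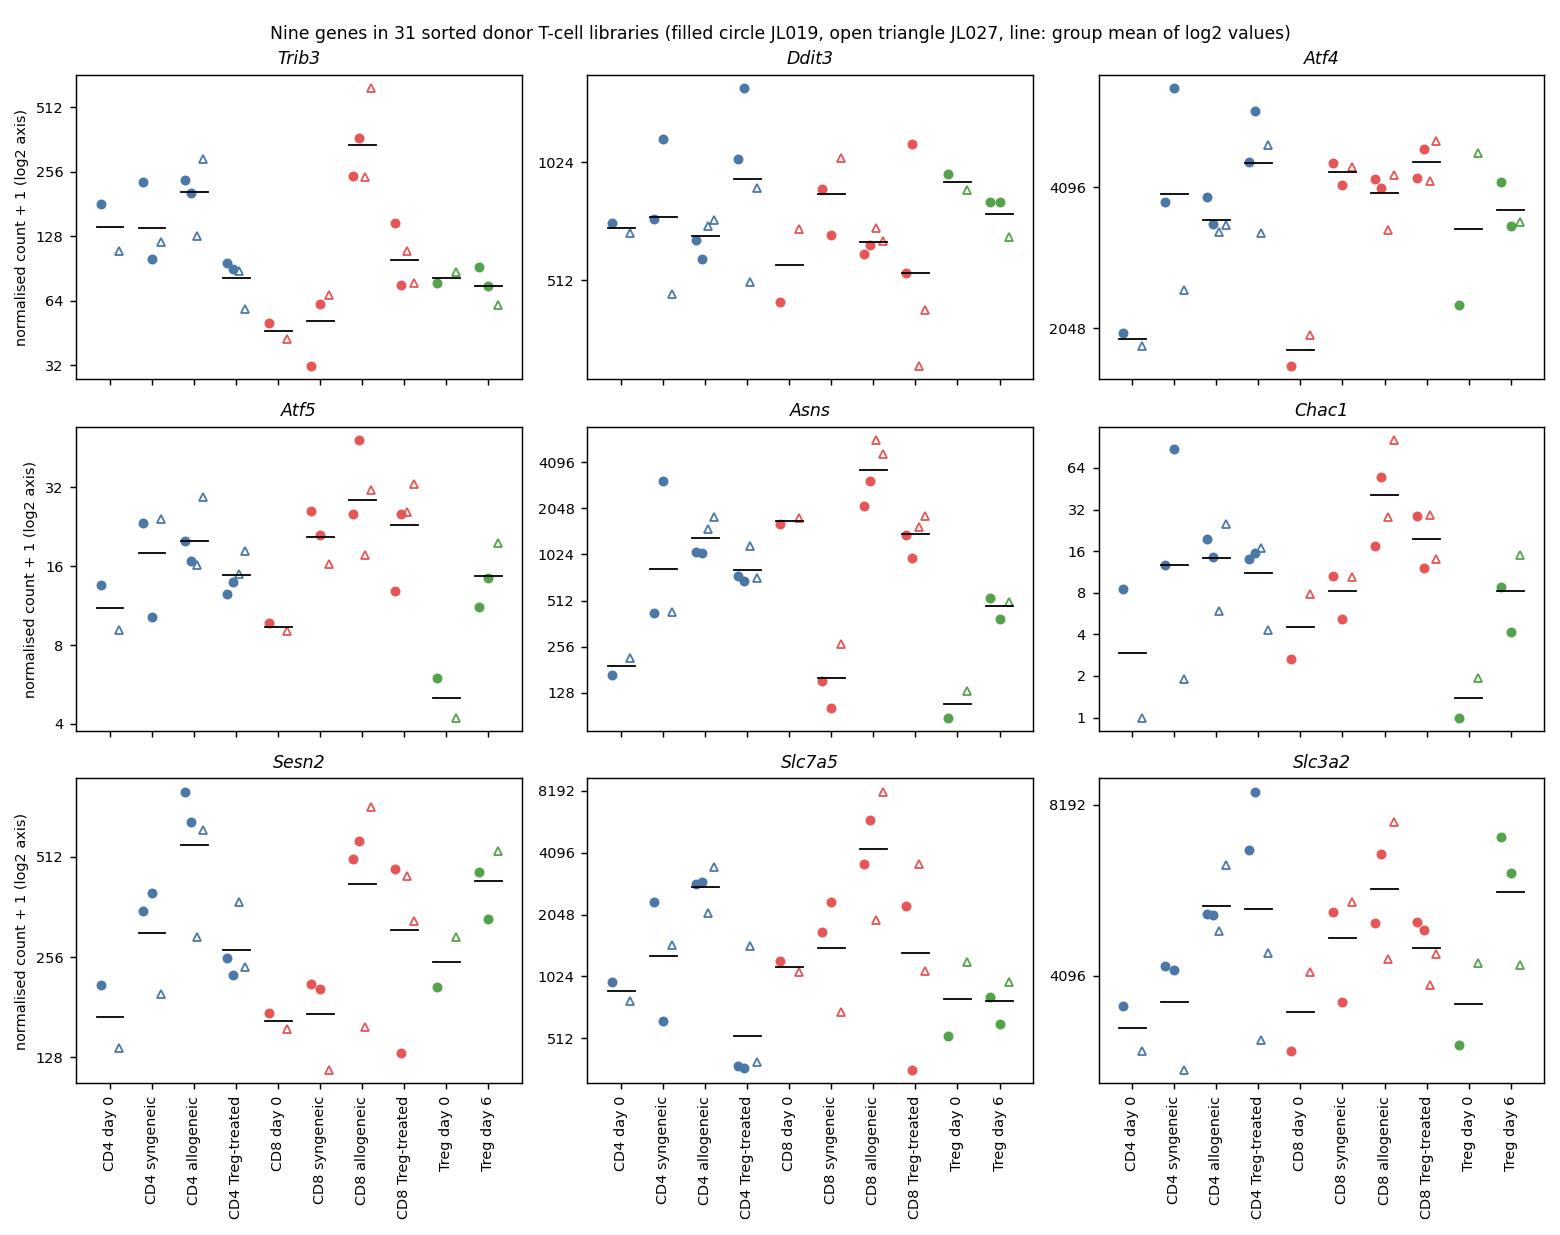
Normalised count plus 1 of each of the 9 genes (log2 axis) in the 31 libraries of 10 groups. Filled circles are JL019 libraries, open triangles JL027 libraries and lines the group means of log2 values. Trib3 and Asns are lower in every CD8 Treg-treated than in every CD8 allogeneic library, while the log2 difference of Atf4 between those groups is 0.22.

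The same treatment was compared in CD4 cells. Their libraries were not those that chose the list, but those of a shared label are taken as coming from the same hosts. The fall of Trib3 in CD4 cells was known when the list was drawn up, so its test is not independent of that choice. Trib3 and Slc7a5 fell. Trib3 counts were 233, 202, 127 and 291 in allogeneic and 95.2, 89.5, 87.6 and 57.7 in Treg-treated CD4 libraries, and the groups did not overlap. Its mean normalised count was 2.59-fold lower. Its log2 change, the difference between the group means of log2 values, was -1.33 (limma adjusted p 0.0144, SE 0.34, n = 4 and 4). Slc7a5 counts were 2871, 2937, 2090.3 and 3497 in allogeneic and 373, 366, 1442 and 390.5 in Treg-treated libraries. Its mean was 4.43-fold lower, and its log2 change was -2.41 (limma adjusted p 0.0110, SE 0.57). Treg-treated replicate JL027-1 stood apart from the other 3 but was still below every allogeneic library. Within JL019 and JL027, Trib3 differed by -1.23 and -1.42 and Slc7a5 by -2.97 and -1.85 on the log2 scale.

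Both genes were called lower, as were 11.5% of all genes, and 22.2% of all genes were called in either direction. The same 2 genes were the only ones of the 9 whose libraries were all lower without overlap, which held for 10.2% of all genes. Sesn2 counts were 799, 650.4, 293 and 616 in allogeneic and 253, 226, 375 and 238 in Treg-treated CD4 libraries, overlapping through the JL027-1 libraries of both groups. Its log2 change of -1.05 (SE 0.41) did not pass (limma adjusted p 0.0672). Without allogeneic JL027-1 Sesn2 fell by 1.35 (limma adjusted p 0.0299), and without Treg-treated JL027-1 by 1.21 (limma adjusted p 0.0372). With only the groups compared it was called as well (limma adjusted p 0.0294). Asns was at 1059, 1046, 1491 and 1787 against 744, 688, 1159 and 716, a log2 change of -0.70 (limma adjusted p 0.247, SE 0.43). Atf5 and Chac1 had log2 changes of -0.43 and -0.36, Slc3a2 of -0.02, Atf4 of 0.41 and Ddit3 of 0.48, all with overlapping groups and limma adjusted p of 0.208 or more. Ddit3 differed by 1.07 in JL019 and by -0.10 in JL027, so its direction depended on the prefix. The median over the 9 genes was -0.43, against -0.00181 over all genes.

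Several library properties moved with this comparison. The mean normalised count was 1608 to 2118 in Treg-treated and 1504 to 1669 in allogeneic CD4 libraries. The summed markers were 127603 to 246352 against 110705 to 133325 for 5 T-cell genes, 8374 to 24716 against 4975 to 7236 for 8 myeloid genes, 2605 to 29727 against 258 to 5107 for 4 erythroid genes, and 143 to 303 against 158 to 239.7 for 4 B-cell genes. The summed count of Cd4, Cd8a, Cd8b1 and Foxp3 was 9678 to 10152 in 3 Treg-treated libraries and 18160 in JL027-1, against 17649 to 22427, and Foxp3 was 127 to 178 against 337 to 579, without overlap. No marker was at 0 throughout either group, and the part of these cells in the result was not tested. When each library's log2 mean value entered as a covariate, Trib3 changed by -1.20 (limma adjusted p 0.0682) and Slc7a5 by -1.40 (limma adjusted p 0.0509), and neither passed. Without Treg-treated replicate JL027-2, Trib3 changed by -1.16 (limma adjusted p 0.0558).

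**Figure D2:**
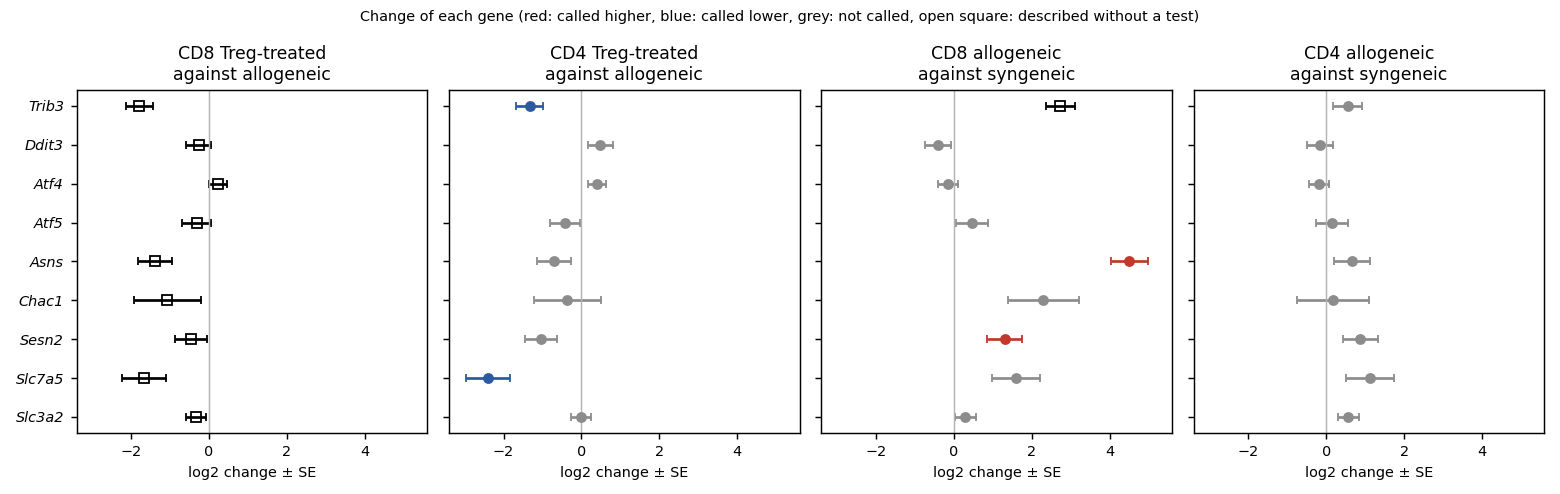
Log2 change of each gene with its SE in 4 comparisons, from 1 limma model over 31 libraries. Trib3 and Slc7a5 are called lower in CD4 Treg-treated cells, Asns and Sesn2 are called higher in CD8 allogeneic cells, and no gene is called between CD4 allogeneic and syngeneic cells.

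The response to an allogeneic host was read against syngeneic hosts. In CD8 cells the change was led by Asns, whose counts of 151, 101 and 264 in syngeneic libraries compare with 2130.3 to 5693 in allogeneic libraries. The groups were far from overlapping, and the mean was 22.7-fold higher, with a log2 change of 4.51 (limma adjusted p 3.01e-08, SE 0.47, n = 4 and 3). The difference was 4.37 in JL019 and 4.28 in JL027. Asns was called under all 15 alternative settings, with log2 changes from 4.17 to 4.87.

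Sesn2 rose in the same comparison, from 212, 204 and 117 to 502, 569.7, 156 and 725. Allogeneic replicate JL027-1 was the low one and lay within the syngeneic range. The log2 change was 1.30 (limma adjusted p 0.0376, SE 0.45). The call was lost when any of CD8 allogeneic JL019-1, JL019-2 and JL027-2 or CD8 syngeneic JL019-1 and JL027 was left out (limma adjusted p 0.0545 to 0.202). It was also lost with the replicate label as a block (limma adjusted p 0.109) and with only the groups compared (limma adjusted p 0.0679). Trib3, described without a test since its choice rested on the allogeneic libraries, had a 6.96-fold higher mean and a log2 difference of 2.74 (SE 0.37). Chac1 lay at 9.55, 4.19 and 9.37 in syngeneic and at 16.5, 53.8, 27.5 and 100.3 in allogeneic libraries, without overlap, but its log2 change of 2.30 (SE 0.92) did not pass (limma adjusted p 0.0758). Chac1 was called with only the groups compared (limma adjusted p 0.0135) and with the log2 mean normalised count as a covariate (limma adjusted p 0.0325). Slc7a5 had a log2 change of 1.60 (limma adjusted p 0.0626, SE 0.61), with 1927 in the lowest allogeneic and 2365 in the highest syngeneic library. Without either of these libraries, CD8 allogeneic JL027-1 or CD8 syngeneic JL019-2, Slc7a5 rose by 1.98 (limma adjusted p 0.0270 and 0.0421). It was also called with median centring, only the groups compared and the covariate (limma adjusted p 0.0425, 0.0489 and 0.0149). Of the 8 genes tested, Asns and Chac1 were higher in every allogeneic library, which held for 14.9% of all genes. Trib3 was too, but it was chosen on these libraries.

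Atf4, Ddit3, Atf5 and Slc3a2 did not pass. Atf4, which translates the stress signal into transcription, was at 4610.3, 4153 and 4531 in syngeneic and at 4264, 4092, 3326 and 4347 in allogeneic CD8 libraries, a log2 change of -0.15 (limma adjusted p 0.725, SE 0.25). Ddit3, the C/EBP-homologous factor induced late in the response, changed by -0.41 (limma adjusted p 0.445, SE 0.34), and Atf5 by 0.47 (limma adjusted p 0.468, SE 0.41). Slc3a2 changed by 0.29 (limma adjusted p 0.503, SE 0.27). Of the 8 genes tested, 2 were called, both higher, as were 10.4% of all genes, with 21.1% called in either direction. The median over the 8 tested genes was 0.89, against 0.02 over all genes. The myeloid sum was 7160 to 9117 in allogeneic and 15229 to 20760 in syngeneic CD8 libraries, and its part in these changes was not tested.

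In CD4 cells 0 of the 9 genes were called between allogeneic and syngeneic hosts by limma, against 14.6% of all genes, and 1 had an unadjusted p under 0.05. That gene was Slc3a2, whose allogeneic counts of 5266, 5241, 4899 and 6422 lay above all syngeneic counts of 4249.7, 4197 and 2794, as for 10.9% of all genes, a log2 change of 0.56 (limma adjusted p 0.190, SE 0.27). The other changes above 0.5 were those of Slc7a5 at 1.12 (SE 0.61), Sesn2 at 0.87 (SE 0.45), Asns at 0.66 (SE 0.47) and Trib3 at 0.55 (SE 0.37), with limma adjusted p from 0.222 to 0.408. Asns turned on 1 library: its syngeneic counts were 426, 3102 and 428, the highest being that of replicate JL019-2, which had the highest myeloid and erythroid sums. The other CD4 syngeneic libraries also had higher myeloid sums than the allogeneic ones, at 27671 and 20610 against 4975 to 7236, and the part of these cells in the changes was not tested. Without that library Asns rose by 1.62 (limma adjusted p 0.00242, SE 0.36), and Sesn2 changed by 1.06 (limma adjusted p 0.218, SE 0.50), Slc7a5 by 0.59 (limma adjusted p 0.733) and Trib3 by 0.31 (limma adjusted p 0.782). Chac1 was also highest in that library, at 86.1 against 11.6 and 0.887 in the other CD4 syngeneic libraries. The median over the 9 genes was 0.55, against -0.00142 over all genes.

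The change in CD8 cells minus that in CD4 cells was tested directly, a comparison chosen after the values were seen. For Asns the difference of log2 changes was 3.84 (limma adjusted p 0.000542, SE 0.66), and without CD4 syngeneic JL019-2 it was 2.89 (limma adjusted p 0.000240, SE 0.47). It was the 1 gene called of the 8 tested, and 4.65% of all genes were called, with 2.69% of all genes higher. For Chac1 the difference was 2.13 (limma adjusted p 0.458, SE 1.30), and for the other 6 tested genes it lay between -0.27 and 0.48.

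Against syngeneic hosts, Treg-treated CD8 cells still had more Asns. Their counts of 967 to 1825 lay above all 3 syngeneic libraries, a log2 change of 3.13 (limma adjusted p 1.20e-05, SE 0.47), which passed under all 15 alternatives. Asns was the 1 gene called of 8 tested, higher as in 9.56% of all genes, with 18.2% called in either direction. Asns and Chac1 were the 2 of these 8 above every syngeneic library, as were 11.5% of all genes, and Trib3, chosen on the Treg-treated libraries, was too. Sesn2 changed by 0.84 (limma adjusted p 0.226, SE 0.45) and Chac1 by 1.23 (limma adjusted p 0.426, SE 0.92), while Slc7a5 changed by -0.07 (limma adjusted p 0.963, SE 0.61). Treg-treated replicate JL019-2 had 131 for Sesn2 against 327 to 471 in the others. Without it Sesn2 changed by 1.25 (limma adjusted p 0.0404) and Ddit3 by -1.04 (limma adjusted p 0.0186). Cd8a was at 22586 to 29769 in Treg-treated and 33817 to 61115 in syngeneic CD8 libraries. The myeloid sum was 18075 in Treg-treated JL019-2 and 7328 to 9095 in the others, against 15229 to 20760 in syngeneic libraries. Their part in these changes and in the lists below was not tested. In CD4 cells 0 of the 9 genes were called in this comparison, against 16.7% of all genes, and 2 had an unadjusted p under 0.05. These were Slc7a5 at -1.29 (limma adjusted p 0.147, SE 0.61) and Trib3 at -0.77 (limma adjusted p 0.153, SE 0.37). Trib3 was lower in every Treg-treated than in every syngeneic CD4 library, as were 8.80% of all genes. Without CD4 syngeneic JL019-2 Slc7a5 changed by -1.82 (limma adjusted p 0.0445), and without CD4 Treg-treated JL027-1 by -1.77 (limma adjusted p 0.0326), when Slc3a2 changed by 0.80 (limma adjusted p 0.0219). The comparisons with syngeneic hosts share their syngeneic libraries, so their values stand side by side and are not independent.

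Before transplantation the Asns counts of the lineages lay apart, with 2 libraries each and no test of that difference. The share of all genes with such a gap was not counted. Day 0 CD8 libraries had 1626 and 1763, day 0 CD4 libraries 167 and 216, and day 0 Treg 87.0 and 129.8. In syngeneic hosts CD8 cells fell to 101 to 264, a mean 9.87-fold lower and a log2 change of -3.41 (limma adjusted p 0.000102, SE 0.56, n = 3 and 2), which passed under all 12 alternatives, including those without either day 0 library (limma adjusted p 0.00359 and 0.00247). It was -3.71 in JL019 and -2.74 in JL027, each with 1 day 0 library. Every syngeneic library was below day 0, as for 25.5% of all genes. CD4 cells went the other way, with a log2 change of 2.12 (limma adjusted p 0.0107, SE 0.56), or 1.17 (limma adjusted p 0.0869, SE 0.41) without CD4 syngeneic JL019-2. That rise did not pass without CD4 day 0 JL019 (limma adjusted p 0.124) or JL027 (limma adjusted p 0.0579) either. The difference between the lineages, chosen after the values were seen, was -5.52 (limma adjusted p 0.000154, SE 0.79), and -4.57 (limma adjusted p 1.65e-05, SE 0.56) without that library. With only the groups compared in the model its adjusted p was 0.0850. Asns was the 1 of 9 genes called in that difference, against 3.63% of all genes called and 3.05% called lower.

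Other RNA marked the day 0 CD8 libraries as well. Their erythroid sum was 15414 to 17063, against 1675 to 5653 in CD8 syngeneic, 271 to 589 in CD4 day 0 and 81.4 to 236 in Treg day 0 libraries. Their B-cell sum was 1548 to 2300.0, against 956 to 1833 in CD8 syngeneic and 362 to 499 in CD4 day 0 libraries. The part of these cells in the Asns values was not tested.

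Atf4 mRNA rose from day 0 in syngeneic hosts. In CD8 cells it went from 1703 and 1979 to 4610.3, 4153 and 4531, a log2 change of 1.27 (limma adjusted p 0.00372, SE 0.30). In CD4 cells it went from 2004 and 1873 to 3809, 6664 and 2471, a log2 change of 1.04 (limma adjusted p 0.0207, SE 0.30), and of 0.66 (limma adjusted p 0.172, SE 0.28) without CD4 syngeneic JL019-2. With 1 day 0 library left out and the other assumed to vary like the remaining groups, the CD4 change did not pass (limma adjusted p 0.108 without JL019, 0.165 without JL027). The CD8 change passed without day 0 JL027 (limma adjusted p 0.0132) but not without day 0 JL019 (limma adjusted p 0.0721). Every syngeneic library was above day 0, which held for 26.0% of all genes in CD8 and 24.8% in CD4 cells. With the log2 mean normalised count as a covariate, which was 1227 to 1484 at day 0 and 1624 to 2119 in syngeneic CD8 libraries, the CD8 change was 0.68 (limma adjusted p 0.0903). The myeloid sum was 5796 and 7726 at day 0 and 15229 to 20760 in syngeneic CD8 libraries, and 2798 and 4016 at day 0 and 20610 to 940006 in syngeneic CD4 libraries, and its part in these changes was not tested. Atf5 changed by 1.14 in CD8 cells (limma adjusted p 0.0897, SE 0.49), from 8.71 and 8.08 to 24.9, 20.0 and 15.2, and by 1.83 with quantile scaling (limma adjusted p 0.0187). Trib3 did not pass in either lineage, with log2 changes of 0.15 in CD8 and -0.0064 in CD4 cells. Chac1 changed by 2.13 in CD4 cells (limma adjusted p 0.213, SE 1.10), by 0.74 without CD4 syngeneic JL019-2 (limma adjusted p 0.773), and by 3.51 without CD4 syngeneic JL027 (limma adjusted p 0.0194). In CD8 cells 1 of the 9 genes was called higher and 1 lower, against 13.0% and 11.3% of all genes and 24.2% in either direction, and the median over the 9 was 0.43, against -0.10 over all genes. In CD4 cells 2 were called higher, as were 9.90% of all genes, with 13.0% called in either direction and a median of 0.69 against -0.04 over all genes.

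Treg recovered after transplantation had more Asns and Atf5 than day 0 Treg. Asns was at 535, 386 and 500.0, against 87.0 and 129.8, a log2 change of 2.13 (limma adjusted p 0.00933, SE 0.56, n = 3 and 2). Atf5, a factor of the Atf4 family linked to stress in mitochondria, was at 10.1, 13.4 and 18.6, against 5.01 and 3.23, a log2 change of 1.54 (limma adjusted p 0.0372, SE 0.49). Both were higher in every later library, as were 26.9% of all genes, but Atf5 did not pass without Treg day 6 JL019-2 (limma adjusted p 0.0779) or JL027 (limma adjusted p 0.137). Without day 0 JL019 neither Asns (limma adjusted p 0.143) nor Atf5 (limma adjusted p 0.0974) passed, and without day 0 JL027 Asns passed (limma adjusted p 0.0351) and Atf5 did not (limma adjusted p 0.246). Erythroid sums were 81.4 and 236 at day 0 and 821, 2137 and 23024 later, and mean normalised counts 1262 and 1299 at day 0 and 1532 to 1612 later. The B-cell sum was 834 and 908 at day 0 and 476 to 720 later, the T-cell sum 99405 and 111580 at day 0 and 125883 to 147567 later, and Cd4 7239 and 9029 at day 0 and 14512 to 16083 later. None of these groups overlapped, and the part of these values in the changes of Asns, Atf5 and the lists below was not tested. Both were called higher, as were 8.43% of all genes, with 13.3% called in either direction. Chac1 was listed at 0 and 0.928 at day 0 and at 7.77, 3.17 and 14.1 later, with limma adjusted p 0.137, or 0.0465 with a pseudocount of 0.1. Sesn2 and Chac1 were also above day 0 in every later library but did not pass, and Ddit3 was below day 0 in every later library, as were 23.9% of all genes, with a log2 change of -0.27. The median over the 9 genes was 0.66, against -0.07 over all genes.

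Trib3 in these Treg, at 90.7, 74.2 and 60.1, overlapped the CD4 Treg-treated libraries. Replicates JL019-1 and JL019-2 share their labels with CD4 libraries, while the JL027 Treg library has no number and cannot be tied to 1 host. Between these groups 0 of the 9 genes were called, with 0 at an unadjusted p under 0.05, while 30.0% of all genes were called. The myeloid sum was 4811 to 6483 in Treg and 8374 to 24716 in CD4 libraries, and the B-cell sum 476 to 720 against 143 to 303, and their part in the values was not tested. Asns was lower in every Treg library, as were 19.4% of all genes, with a log2 difference of -0.78 (limma adjusted p 0.206, SE 0.47), which passed with only the groups compared (limma adjusted p 0.0387). Slc7a5 had 815, 597 and 959 in Treg, above 3 of the 4 CD4 Treg-treated libraries and below replicate JL027-1. With the replicate label as a block in the model of all groups, Slc7a5 did not pass (limma adjusted p 0.356). With the host as a block and only these groups in the model, an analysis chosen after the values were seen, Slc7a5 was 0.91 higher in Treg on the log2 scale (limma adjusted p 0.0198, SE 0.26). In that fit only JL019-1 and JL019-2, the labels found in both groups, contribute. The median over the 9 genes was -0.13, against 0.14 over all genes.

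Within allogeneic hosts, Asns was higher in CD8 than in CD4 cells. The CD8 counts of 2130.3 to 5693 lay above the CD4 counts of 1046 to 1787, as for 10.6% of all genes, a log2 difference of 1.47 (limma adjusted p 0.0380, SE 0.43). It was the 1 gene called of 8 tested, against 6.15% of all genes called and 3.05% called higher, and it was not called when any of 6 of the 8 libraries was left out, namely CD4 JL019-1, JL019-2 and JL027-1 and CD8 JL019-2, JL027-1 and JL027-2 (limma adjusted p 0.0589 to 0.145). Quantile scaling (limma adjusted p 0.0661) and the log2 mean normalised count as a covariate (limma adjusted p 0.0502) ended the call as well. The B-cell sum was 690 to 972 in CD8 and 158 to 239.7 in CD4 libraries, and the myeloid sum 7160 to 9117 against 4975 to 7236, and their part was not tested. With CD4 and CD8 libraries of 1 host paired as a block, Asns had a limma adjusted p of 1.65e-05 and Chac1 was also called, at 1.51 (limma adjusted p 0.0191, SE 0.42). Chac1 counts were 18.6, 13.6, 4.95 and 24.1 in CD4 and 16.5, 53.8, 27.5 and 100.3 in CD8 cells. Trib3, untested here, differed by 0.73 (SE 0.34), and the other 6 genes by -0.38 to 0.60. In CD8 allogeneic cells replicate JL027-2 was highest in 6 of the 9 genes and JL027-1 lowest in 6. In CD4 allogeneic cells JL027-2 was highest in 7 and JL027-1 lowest in 7. The same labels, taken here as 1 host each, were thus at the ends of the range for most of the 9 genes in both lineages. Trib3 was at 242 and 624 in CD8 and 127 and 291 in CD4 cells for JL027-1 and JL027-2. How many of all genes had these libraries at the ends was not counted. The pattern is thus not read as particular to the 9 genes. Over all genes, deviations of the CD4 and CD8 libraries from their group means correlated at 0.42 for JL027-1 and 0.14 for JL027-2.

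Over the 10 groups, the medians of Trib3 ran from 45.5 in CD8 day 0 to 305 in CD8 allogeneic cells. The next was CD4 allogeneic at 218, and each neighbour in the order overlapped the next. For Asns the medians ran from 108 in Treg day 0 to 3870.3 in CD8 allogeneic cells. The CD8 allogeneic libraries did not overlap day 0 CD8, the next group by median, but CD4 syngeneic JL019-2, at 3102, lay within their range. Gaps without overlap also lay between CD4 Treg-treated at 729.8 and Treg day 6 at 500.0, and between CD4 syngeneic at 428 and CD4 day 0 at 191. For Slc7a5 the medians ran from 382 in CD4 Treg-treated to 4739 in CD8 allogeneic cells, and for Sesn2 from 164 in CD8 day 0 to 633 in CD4 allogeneic cells. Those of Atf4 ran from 1841 to 4842 with the day 0 CD4 and CD8 groups below all later groups, and those of Ddit3 from 481 to 961 with every neighbour overlapping. Those of Slc3a2 ran from 3316 to 6212, those of Atf5 from 4.12 to 27.3 and those of Chac1 from 0.464 to 40.7.

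By the Pearson correlation of log2 group means over the 10 groups, among 13740 genes with a mean of at least 10, the genes most like Trib3 were Prx (r = 0.91), Akap12 (0.90), Wiz (0.88), Fbxo34 (0.86) and L1cam (0.85). Of the other 8 genes Slc7a5 was the most like Trib3 (0.68), followed by Sesn2 (0.63), Chac1 (0.53), Atf5 (0.47) and Asns (0.45), with Slc3a2 at 0.30, Atf4 at 0.15 and Ddit3 at -0.21. The genes most like Asns were Mt1 (0.96), Mboat2 (0.96), Stard10 (0.94), Tceanc (0.93) and Cd36 (0.93), and Chac1 was at 0.79. The points are 10 group means from libraries scaled together, and the values are descriptions.

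Genes next to these in the pathway were taken from lists written from general knowledge. In CD4 cells of Treg-treated against allogeneic hosts, 4 of 12 cytosolic aminoacyl-tRNA synthetases, which load amino acids onto transfer RNA, were lower and 0 higher: Lars by -1.48, Aars by -1.55, Iars by -1.57 and Cars by -0.64 (limma adjusted p 0.0144 to 0.0425). The median of the 12 was -0.55. Of all genes, 11.5% were called lower and 10.7% higher in this comparison, and the shares of the transporters and enzymes given below rest on 1 or 2 genes each. Of 9 mTORC1 regulators, 4 were lower, Tsc2 (-1.46), Tsc1 (-1.21) and Rptor (-1.23) among them, and Rheb, the direct activator, was higher (0.72), with a median of -0.92. Of 7 genes of eIF2, its kinases and its phosphatase, 4 were lower and 2 higher. The heme-regulated kinase Eif2ak1 fell by 0.81 and the endoplasmic reticulum kinase Eif2ak3 (PERK) by 1.36 on the log2 scale, and the kinase of double-stranded RNA Eif2ak2 rose by 0.85. Of 8 other amino acid transporters 2 were lower, the neutral amino acid carriers Slc1a4 (-1.77) and Slc1a5 (-0.83), and of 11 enzymes of serine, one-carbon, proline and transamination metabolism 1 was lower, Aldh18a1 (-1.55), and 1 higher, Mthfd2 (0.50).

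Chaperone genes were among those called higher. Of 14 endoplasmic reticulum chaperones and unfolded protein response genes, 4 were higher, with Creld2 at 1.12, Manf at 1.20 and Sdf2l1 at 1.10, and 1 lower, the sensor Atf6 at -1.36, with a median of 0.05. Of 5 mitochondrial chaperones and proteases the partners Hspe1 (1.67) and Hspd1 (0.88) were higher and 0 lower. Of 6 other bZIP factors and partners of Atf4, 1 was called, Cebpg (0.85), and Trib1, Trib2 and Myc were not. These counts depended on single libraries. The synthetases, mTORC1 regulators and transporters gave 4, 4 and 2 genes lower. Without CD4 Treg-treated JL019-1 or JL019-2 they gave 0 each, without JL027-2 they gave 1, 0 and 0, and without JL027-1 they gave 7, 5 and 3. Without CD4 allogeneic JL019-1 they gave 2, 1 and 0, without JL019-2 they gave 1, 1 and 0, and without JL027-2 they gave 2, 3 and 0. With the mean normalised count as a covariate they gave 0, 1 and 0. The share of all genes called in each of these fits is not given here. The eIF2 genes gave between 1 and 4 lower, and the endoplasmic reticulum genes between 1 and 4 higher, when 1 library was left out. The calls of Eif2ak1, Cebpg, Creld2, Hspe1 and Hspd1 held in all 16 alternatives.

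In CD8 cells of allogeneic against syngeneic hosts, the metabolic genes called with Asns were mostly at low counts. Of all genes, 10.4% were called higher and 10.7% lower there. Pycr1, the last enzyme of proline synthesis, rose by 3.12 (9.71 to 22.1 in syngeneic and 81.7 to 209 in allogeneic libraries), the alanine aminotransferase Gpt2 by 3.48 and the cysteine-forming Cth by 3.31. With Psat1 (0.67, not called in 9 of 15 alternatives) these were 4 of the 11 enzymes, with 0 lower and a median of 0.65. Of 8 transporters Slc1a4 rose (3.30) and Slc7a1 (-1.03) and Slc7a6 (-0.66) fell. Among the 6 other bZIP factors and partners of Atf4, 3 were called. Nupr1 (3.77) and Jdp2 (2.42) rose and Nfe2l2, the regulator of antioxidant genes, fell (-1.67). Of the eIF2 genes Eif2ak3 (2.11) and the amino acid sensing kinase Eif2ak4 (GCN2, 1.08) rose and Eif2ak2 (-0.77) fell, and of the endoplasmic reticulum genes 4 of 14 rose, with Ern1 at 3.30, Atf6 at 2.78 and Xbp1 at 1.23. Among mTORC1 regulators 3 rose, Mtor (1.34), Ddit4 (1.78) and Depdc5 (1.03), and 2 fell, Sesn1 (-1.82), a relative of Sesn2, among them. Of 12 synthetases Gars (0.87) and Cars (0.80) rose, and of 5 mitochondrial genes Hspe1 fell (-1.36). With 1 library left out, the mTORC1 regulators gave 4 higher without CD8 syngeneic JL019-2 or CD8 allogeneic JL027-1, 2 without CD8 allogeneic JL019-1, and 1 without CD8 allogeneic JL019-2 or JL027-2 or CD8 syngeneic JL019-1 or JL027. They gave 1 lower without CD8 allogeneic JL027-2 or CD8 syngeneic JL019-1. The synthetases gave 4 higher without CD8 allogeneic JL027-1 and 1 without CD8 allogeneic JL027-2 or CD8 syngeneic JL027. The eIF2 genes gave 1 higher without CD8 syngeneic JL019-1, 2 lower without CD8 allogeneic JL027-1, and 0 lower without CD8 allogeneic JL027-2 or CD8 syngeneic JL019-2 or JL027. The transporters gave 0 lower without CD8 allogeneic JL027-1 or CD8 syngeneic JL027, and 1 lower without CD8 allogeneic JL019-1 or CD8 syngeneic JL019-1. Trib2 (1.82) and Trib1 (2.81), the relatives of Trib3, rose, and Myc fell (-2.10). The calls of Pycr1, Gpt2, Cth, Slc1a4, Nupr1, Jdp2, Nfe2l2, Eif2ak3, Ern1, Atf6, Xbp1, Mtor, Sesn1, Gars, Hspe1, Trib1, Trib2 and Myc held in all 15 alternatives.

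In CD8 cells of Treg-treated against allogeneic hosts the lists are described without a test, since that comparison chose Trib3. There 5 of 7 eIF2 genes, 4 of 8 transporters, 2 of 6 other bZIP factors and partners, and 2 of 5 mitochondrial genes were below 0. So were 11 of 12 synthetases, 8 of 11 enzymes and 7 of 9 mTORC1 regulators, with medians of -0.32, -0.48 and -0.54. Of the 14 endoplasmic reticulum genes 9 were above 0, with a median of 0.30. The median over all genes was -0.0069.

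In CD4 cells the same lists gave at most 3 calls each between allogeneic and syngeneic hosts. Ern1 (2.44), Atf6 (2.09) and Xbp1 (0.88) rose among the endoplasmic reticulum genes, Eif2ak3 (1.58), Mtor (0.98), Got1 (0.84), Gars (0.76) and Jdp2 (1.39) rose in theirs, and the glutamine carrier Slc38a1 rose by 0.43, just inside the threshold. Nfe2l2 (-1.37), Eif2ak2 (-0.76), Hspe1 (-1.04) and Hspd1 (-0.64) fell. Of all genes, 6.69% were called higher and 7.91% lower. Without CD4 syngeneic JL019-2 the calls of Slc38a1, Gars, Eif2ak2, Hspe1 and Hspd1 were lost (limma adjusted p 0.257, 0.214, 0.229, 0.231 and 0.219), and those of Ern1, Atf6, Xbp1, Eif2ak3, Mtor, Got1, Jdp2 and Nfe2l2 were not. Jdp2 was lost without CD4 allogeneic JL019-1, CD4 syngeneic JL019-1 or CD4 syngeneic JL027 and with only the groups compared (limma adjusted p 0.0517, 0.0870, 0.198 and 0.216). The rise in CD8 cells exceeded that in CD4 cells, by the test of the difference, for Pycr1 (3.34, limma adjusted p 8.32e-05) and Gpt2 (3.28, limma adjusted p 0.00406), and Myc differed by -1.96 (limma adjusted p 0.00126), lower as were 1.96% of all genes, all under all 22 alternatives. Trib1 (3.28) and Trib2 (1.79) were also called, but neither without CD8 syngeneic JL027 (limma adjusted p 0.0630 and 0.0528), nor Trib1 without CD4 syngeneic JL019-2 (limma adjusted p 0.0672). Trib2 was lost in 8 of the 22 alternatives. Nupr1 (3.98, limma adjusted p 0.0482) was called higher but lost in 17. Slc7a6 (-1.16, limma adjusted p 0.0235) and Sesn1 (-1.56, limma adjusted p 0.0217) were called lower and lost in 3 each, CD4 syngeneic JL019-2 left out being 1 of them (limma adjusted p 0.0618 and 0.0852).

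**Figure D3:**
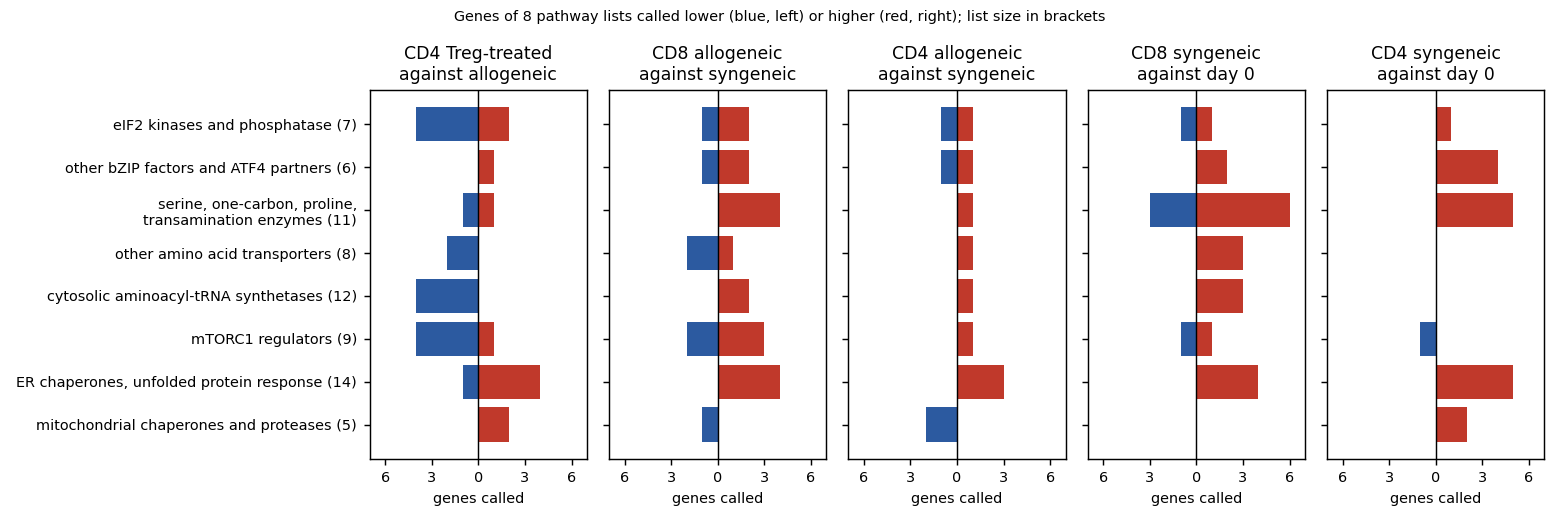
Number of genes called higher (right) and lower (left) in each of 8 pathway lists, with the list size in brackets, in 5 comparisons. Synthetases and mTORC1 regulators have 4 genes each called lower in CD4 Treg-treated cells, and the serine, one-carbon, proline and transamination enzymes have 4 called higher and 0 lower in CD8 allogeneic cells.

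From day 0 to syngeneic hosts, calls in both directions occurred among the serine, one-carbon, proline and transamination enzymes in CD8 cells. Got1 (1.64), Mthfd2 (1.40), Phgdh (1.48) and Psat1 (1.60) led the 6 of 11 enzymes called higher, with 3 lower, against 13.0% and 11.3% of all genes, and all of these 4 held in all 12 alternatives. Without CD8 day 0 JL019 the enzymes gave 5 higher and 1 lower. In CD4 cells 5 of the 11 were higher, against 9.90% of all genes, and 0 lower, with Psat1 at 1.73, Mthfd2 at 1.05 and Phgdh at 1.21, and 3 were higher without CD4 day 0 JL019, CD4 day 0 JL027 or CD4 syngeneic JL019-1. With only the groups compared, Psat1, Mthfd2 and Phgdh did not pass in CD4 cells (limma adjusted p 0.0835, 0.187 and 0.161). Of 8 transporters 3 were higher in CD8 cells, Slc7a1 (1.39) and Slc7a6 (1.09) among them, and 0 in CD4 cells. Without CD8 day 0 JL019 the 3 were not called. Other list genes at low counts in most CD4 libraries were high in CD4 syngeneic JL019-2: Atf3 ran from 15.0 to 1649.7 in the CD4 syngeneic group. Of the 6 other bZIP factors and partners of Atf4, 4 were called higher in CD4 cells. Without CD4 syngeneic JL019-2 1 was called, and fewer were called without CD4 day 0 JL019 or JL027.

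Between day 0 and the later time in Treg, calls lay mainly in the endoplasmic reticulum and enzyme lists. Of the 14 endoplasmic reticulum genes 10 were higher and 0 lower, against 8.43% of all genes called higher, with the sensor Ern1 at 4.21 and the chaperone Hsp90b1 at 1.51, and 8 to 9 were higher when 1 later library was left out. Without day 0 JL027 the number was 8, and without day 0 JL019 it was 3, with Ern1 and Hsp90b1 still called. Of the 11 enzymes 4 were higher and 0 lower, with Got1 at 2.70 and Gpt2 at 2.63, and of the 12 synthetases 1 was higher, Gars at 0.98. Without either day 0 library 2 enzymes were higher, and Gars did not pass without day 0 JL019 (limma adjusted p 0.241). With the log2 mean normalised count as a covariate, 7 of the 12 synthetases were called higher in Treg. From day 0 to syngeneic hosts that fit called 9 in place of 3 in CD8 and 4 in place of 0 in CD4 cells. The share of all genes called in that fit is not given here, so nothing about the synthetases is read from these counts. In CD8 cells of Treg-treated against syngeneic hosts 8 of the 14 endoplasmic reticulum genes were higher, against 9.56% of all genes, and 0 lower, among them Hsp90b1 at 1.31, Ern1 at 3.14 and Xbp1 at 1.21, with 6 to 9 when 1 library was left out. Of the 11 enzymes 3 were higher there, Pycr1 (1.61), Gpt2 (1.53) and Cth (2.02), and 1 lower, the one-carbon enzyme Shmt2 (-0.87), against 9.56% and 8.63% of all genes. Pycr1 held in all 15 alternatives, while Gpt2 was lost in 5 and Cth in 8, the replicate label block among both (limma adjusted p 0.231 and 0.112). The enzymes gave 1 higher without CD8 Treg-treated JL019-1 or JL027-1, and 2 without CD8 Treg-treated JL027-2 or any 1 CD8 syngeneic library. Between CD8 and CD4 cells of allogeneic hosts 5 of the 11 enzymes were higher in CD8 cells, against 3.05% of all genes, and 0 lower, with Shmt2 at 0.97, Phgdh at 0.79, Psat1 at 0.84 and Pycr1 at 1.22. That count was 2 without CD8 allogeneic JL027-2 and 3 without CD4 allogeneic JL019-1 or JL019-2. Endoplasmic reticulum genes were called in other comparisons too. In Treg-treated against syngeneic CD4 cells 5 of 14 were higher and 0 lower, with 16.7% of all genes called in either direction. Without CD4 syngeneic JL019-2 these were 6 and 1. From day 0 to syngeneic hosts 5 were higher in CD4 and 4 in CD8 cells, against 9.90% and 13.0% of all genes. Without CD4 syngeneic JL019-2, 2 were higher in CD4 cells.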

How the data were processed

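RNA from 31 T cell libraries was analysed as a table of 16741 genes, and 1 T cell receptor sample and its table were not used here. The values are normalised counts deposited by the authors, per the file headers, a signal scaled between libraries. FastQC 0.11.7, kallisto, DESeq2, GRCm38 and mm10 are named in the submitters' processing notes, and their order and settings are not given in the sources used here. Libraries were made with SMARTer v4 full-length cDNA and Nextera XT, per the labels' protocols. The authors' deposited fold changes and p-values were not used. Whole reads could not be recovered from the values, so no count test was run, and the depth per sample is unknown.

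Log2(value + 1) was fitted in limma 3.58.1 (R 4.3.3, trend and robust) with 1 mean per group over 10 groups, and fold changes on this scale understate those of low genes. Folds in the text are ratios of mean normalised counts, while log2 changes are differences between mean log2 values. A mean of at least 1 removed 0 genes. P-values were adjusted over 16741 genes by the Benjamini-Hochberg method, with a threshold of 0.05 for a call. Tables and figures were made with Python 3.11.15, numpy 2.4.6, pandas 2.3.3 and matplotlib 3.10.9, and the scripts were tested on simulated data. The genes, lists and tests were chosen with earlier results of these data known, and the fall of Trib3 in CD4 cells was among them. The text names all 9 genes, from each pathway list up to 4 called genes with the lowest p per comparison, lineage genes as label checks, and the 5 genes most like Trib3 and Asns (mean at least 10, predicted genes left out).

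The CD8 minus CD4 differences, the host block, the leaving out of day 0 libraries and the leaving out of libraries for the lists were chosen after the values were seen. Alternatives were a pseudocount of 0.1, a mean of at least 10, quantile and median scaling, the log2 mean value as a covariate, blocks, only the groups compared, and each library left out. The shares of all genes called that the text gives are those of the main fit. Libraries of 1 label and treatment were taken as 1 host. Deviations from the group means of CD4 and CD8 allogeneic libraries of 1 host correlated at 0.13 to 0.42 over genes in all 4 pairs, those of CD4 Treg-treated and later Treg at -0.07 and -0.06, and those of Treg-treated and allogeneic libraries of 1 number, which are different hosts, at -0.17 to 0.18.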

Additional observations from a re-analysis of the deposited data

Results flagged for a closer look

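In the CD4 Treg-treated group, replicate JL027-1 stood apart from the other 3 libraries for 2 genes. Asns was at 1159 there, against 688 to 744 in the others, and Slc7a5 was at 1442, against 366 to 390.5. These 2 were found among 36 groups of 4 libraries checked for a distant highest or lowest value, and chance gives about 1 in 20. The summed count of Cd4, Cd8a, Cd8b1 and Foxp3 in that library, 18160 against 9678 to 10152 in the others, was within the allogeneic range of 17649 to 22427, and its mean normalised count was the lowest of the group at 1608. Their part in the values was not tested.

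The change of Asns between allogeneic and syngeneic hosts differed between CD8 and CD4 cells by 3.84 on the log2 scale, by the test of the difference. Its change from day 0 to syngeneic hosts differed between the lineages by -5.52. Both tests held with each library left out in turn, CD4 syngeneic JL019-2 among them.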

How the results depend on the processing

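The number of the 9 genes called was recomputed under 200 alternatives over the comparisons, and 162 stayed within 1.5 times the number reported, which does not say that the same genes were called. With the log2 mean normalised count as a covariate the number called was 0 in place of 2 for Treg-treated against allogeneic CD4 cells, 1 in place of 0 for allogeneic against syngeneic CD4 cells, 4 in place of 2 for allogeneic against syngeneic CD8 cells, and 2 in place of 1 for Treg-treated against syngeneic CD8 cells. In that fit the calls of Asns and Atf4 in CD4 cells from day 0 were lost (limma adjusted p 0.0835 and 0.152), as was that of Asns between CD8 and CD4 allogeneic cells (limma adjusted p 0.0502), while Slc7a5 was called there. Ddit3 was the gene gained in Treg-treated against syngeneic CD8 cells, at -0.94 (limma adjusted p 0.000365). It was -0.80 in CD4 cells from day 0 to syngeneic hosts (limma adjusted p 0.0314) and -1.08 in Treg from day 0 (limma adjusted p 0.00158). Slc7a5 was 2.25 in CD8 and 2.04 in CD4 cells from day 0 to syngeneic hosts (limma adjusted p 0.00685 and 0.0103). Median centring gave 1 in place of 0 for Treg-treated against syngeneic CD4 cells and 1 in place of 2 for CD4 cells from day 0, and quantile scaling gave 0 in place of 1 for CD8 against CD4 allogeneic cells. With only the groups compared, the number was 0 in place of 2 for CD4 cells from day 0, 1 in place of 2 for Treg from day 0, 1 in place of 0 for later Treg against CD4 Treg-treated cells, and 0 in place of 1 for the CD8 minus CD4 difference from day 0. The cause of these shifts was not tested.

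With the replicate label as a block the number was 1 in place of 2 for allogeneic against syngeneic CD8 cells, the call of Sesn2 being lost. With the host as a replicate block it was 2 in place of 1 for CD8 against CD4 allogeneic cells and 1 in place of 0 for later Treg against CD4 Treg-treated cells. The block changed no other number by over 1.5 times.

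With 1 library left out, the number ran from 1 to 3 for Treg-treated against allogeneic CD4 cells, 0 to 1 for allogeneic against syngeneic CD4 cells, 1 to 3 for the same in CD8 cells, 0 to 2 and 1 to 3 for Treg-treated against syngeneic CD4 and CD8 cells, 0 to 3 for CD4 cells, 1 to 2 for CD8 cells and 0 to 2 for Treg from day 0, and 0 to 1 for CD8 against CD4 allogeneic cells. In Treg-treated against allogeneic CD8 cells 8 of the 9 genes stayed below 0 with each library left out. Trib3, chosen on its fall in that comparison, is among these 8, and nothing is read from the number. The values nearest to 0 were -0.0034 for Ddit3, -0.04 for Atf5 and -0.05 for Sesn2. Leaving out day 0 libraries, which leaves 1 library in the group and assumes that it varies like the other groups, was chosen after seeing the data. Depth limits could not be given. Of the calls of list genes, 490 values under alternatives lost the call and 0 reversed. Calls that list genes gained are not in that number.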
